A study of Mus musculus with 8 samples.

Results

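BI-9564 and PFI-3 were compared with each other in RNA-seq of JUN TetON ESCs, 2 libraries of each compound, out of 8 libraries in the series. These are mouse embryonic stem cells (ESCs) of the OG2 line, of mixed 129SVJ, C57B6 and CBA background, at passage 12, in which doxycycline switches on a c-Jun transgene. All groups were grown without feeder cells in 2i/LIF medium, which holds the MEK inhibitor PD0325901, the GSK3 inhibitor Chir99021 and the cytokine LIF, and all received 2 µg/ml doxycycline, so JUN was induced in the controls too. The groups were DMSO (the solvent), PFI-3, BI-9564 and both compounds together (P+B), each with 2 libraries. The labels give 6 h of treatment, and the paper's legend gives 8 h of JUN induction with 6 h of compound. The labels name no dose, and they do not say whether the 2 libraries of a group came from separate cultures, so p-values measure the spread between these libraries, which may be technical. Genes were kept by their mean TPM (a length-scaled share of a library's transcripts) of at least 5 over the 8 libraries, which left 10222 of 50600 named genes. The differences below are on log2(TPM + 1), BI-9564 minus PFI-3, so a positive value is higher with BI-9564.

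Bromodomains are protein pockets that bind acetylated lysines, as found on histones of active chromatin. PFI-3 occupies the bromodomains of BRG1 (*Smarca4*), BRM (*Smarca2*) and PB1 (*Pbrm1*), the ATPases and a PBAF subunit of the BAF (SWI/SNF) chromatin remodelers. BI-9564 occupies those of BRD9, a subunit of non-canonical BAF, and BRD7, a subunit of PBAF. In this model JUN, an AP-1 transcription factor, drives ESCs out of pluripotency, and the study asked whether the bromodomains of BAF take part in that. The comparison of the 2 single compounds asks which genes tell one set of bromodomains from the other.

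Among gene lists chosen with earlier results of these data known, the compounds differed most plainly in 3 groups of genes. p53 response genes, among them *Psrc1*, *Btg2*, *Plk2*, *Cdkn1a* and *Ccng1*, were higher with BI-9564. The amino acid stress factor *Atf4* with its targets *Trib3*, *Chac1* and *Nupr1*, and a set of naive pluripotency and LIF-STAT3 genes including *Nanog*, *Esrrb*, *Klf4* and *Bcl3*, were lower with BI-9564, that is, higher with PFI-3. Of the 10222 genes, 151 (1.48%) passed an adjusted p-value of 0.05 and a fold of at least 1.5 in limma (moderated linear model, Benjamini-Hochberg adjustment) with the replicate number as a block, 51 higher with BI-9564 (0.499%) and 100 lower (0.978%). Without the block 11 genes passed (0.108%), 3 higher (0.0293%) and 8 lower (0.0783%), all of them among the 151. None of these 11 was in the naive or LIF-STAT3 list, and the *Nanog* libraries of the 2 compounds overlapped. The calls rested on all 8 libraries: a fit of only the 4 libraries compared called 0 genes in limma (1701 at an unadjusted p under 0.05 with the block and 1350 without), and so did each fit without 1 library other than PFI-3 replicate 1, without which 1 gene outside the 151 was called (*Gm42742*, named here for that count).

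The 2 same-numbered pairs of libraries gave the same sign for all 151 called genes, which the call partly selects for, and for 58.8% of all tested genes. Across the 10222 genes the difference in pair 1 and that in pair 2 had a Pearson r of 0.305, a description across genes, which are not independent replicates. The median difference over all tested genes was 0.00, with 48.7% of genes below 0. Called differences ran from −2.27 to 2.70, with a median size of 0.78 and a median standard error (SE) of 0.12. In 146 of the 151 the libraries of the 2 compounds did not overlap. Over all tested genes, both BI-9564 libraries were above both PFI-3 libraries in 20.5% and below them in 19.9%. For 1 gene alone, 2 libraries per compound allow a two-sided exact permutation p no smaller than 0.333.

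**Figure D1:**
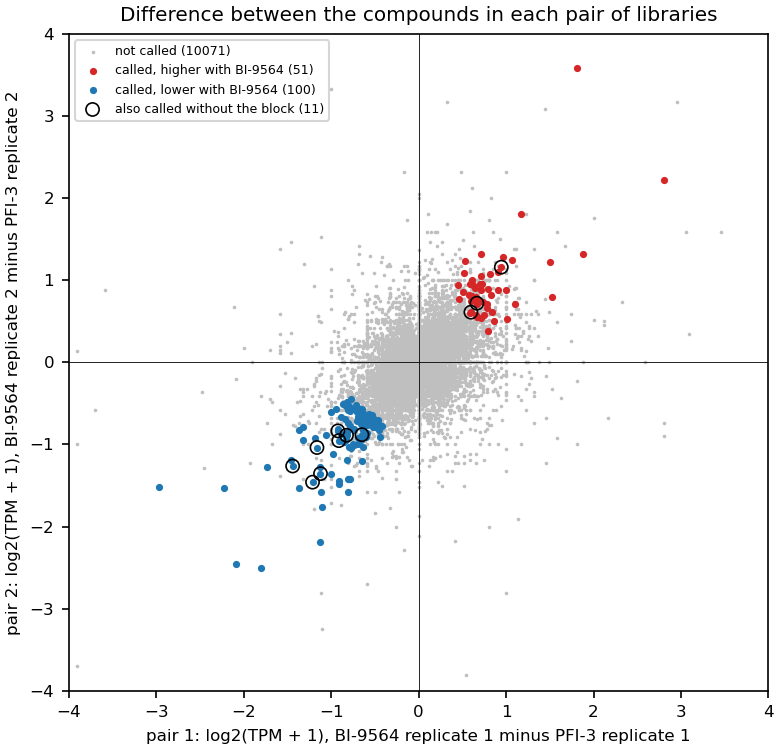
Difference on log2(TPM + 1), BI-9564 minus PFI-3, in the libraries numbered 1 (horizontal axis) and in those numbered 2 (vertical axis), 1 point per tested gene; red points are the 51 genes called higher and blue points the 100 called lower with BI-9564, and rings mark the 11 also called without the block. Called genes lie at the lower left and the upper right, and 19 genes, none of them called, lie beyond the axis limit of 4.

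The TPM summed to 991574 to 991897 per library, a total that the TPM scale itself fixes and that says nothing of depth. In each library 10285 to 10451 genes had a TPM of at least 5. Replicates of a group had a Pearson r of 0.964 to 0.971 on log2(TPM + 1). The ESC markers summed to 1673 to 1908 TPM with BI-9564 and 2105 to 2322 TPM with PFI-3. Of 10 fibroblast markers 5 were at 0 in all libraries and the sum was 0 to 6 TPM. Fewer cells of a type and less RNA per cell cannot be told apart in such bulk samples.

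The genes of the proteins that the compounds bind did not pass the test between them. *Smarca4* measured 119 and 132 TPM with PFI-3 and 137 and 147 TPM with BI-9564, a difference of 0.18 (95% interval 0.02 to 0.33; limma, adjusted p = 0.19). *Pbrm1* differed by 0.15 (−0.10 to 0.39), *Brd7* by 0.14 (−0.27 to 0.55) and *Brd9* by 0.08 (−0.25 to 0.42). The intervals of these 4 genes leave room for a difference of up to about 0.55 in *Brd7*, so like levels were not shown. *Smarca2* was under the filter. Of 18 tested genes of other BAF subunits 0 were called in limma, and 8 of them were above PFI-3 in both BI-9564 libraries and 1 below, beside 20.5% and 19.9% of all genes.

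*Jun* RNA was unequal within each same-numbered pair. The table holds 1 *Jun* value per library, with no separate value for the transgene. *Jun* measured 1570 and 2227 TPM with PFI-3, 2071 and 3011 TPM with BI-9564, 1970 and 2877 TPM with DMSO, and 1569 and 2159 TPM with P+B. BI-9564 was the higher in each pair, by 0.42 (SE 0.04; 95% interval 0.33 to 0.51; limma with the block, adjusted p = 0.00961), which is under the 1.5-fold threshold, and the libraries of the 2 compounds overlapped (adjusted p = 0.52 without the block). In both pairs PFI-3 and P+B were the low groups and DMSO and BI-9564 the high ones. The part of this gap in *Jun* in the results that follow was not tested.

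Of 6 listed genes that JUN is known to switch on, 3 were tested and 0 were called in limma. *Anxa1*, which codes for a phospholipid-binding annexin, measured 39 and 26 TPM with PFI-3 and 45 and 40 TPM with BI-9564 (0.40, 95% interval 0.03 to 0.78; limma, adjusted p = 0.221). *Fosl2* and *Fosl1*, AP-1 partners of JUN, differed by 0.35 (−0.04 to 0.75) and 0.12 (−0.41 to 0.65). *Anxa1* had 63 and 52 TPM with DMSO and 21 and 12 TPM with P+B, and none of the 3 tested genes was called against DMSO with either single compound. The other 3 were under the filter and were not tested. *Runx1* had 2 and 3 TPM with PFI-3, 6 in both BI-9564 libraries and 4 and 9 TPM with DMSO. *Pxdc1* had 2 and 4 TPM with PFI-3, 6 in both BI-9564 libraries and 8 in both DMSO libraries, so BI-9564 lay above PFI-3 with no overlap in both genes. *Tgfbi* had 1 and 3 TPM with PFI-3 and 1 and 2 TPM with BI-9564. Among 12 tested AP-1 family genes only *Atf3*, a stress-induced repressor, was called (all genes, 0.499% called higher and 0.978% lower). It measured 17 and 20 TPM with PFI-3, 29 and 34 TPM with BI-9564, 29 and 32 TPM with DMSO, and 10 and 13 TPM with P+B. *Atf3* was thus level between BI-9564 and DMSO and low wherever PFI-3 was present, with a difference between the compounds of 0.74 (SE 0.13; limma, adjusted p = 0.0424).

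p53 is a transcription factor that is held low by MDM2 and switches on genes of cell cycle arrest, DNA repair and apoptosis when stabilised, and ESCs carry much of it. Of 27 listed p53 response genes 23 were tested. Of these, 9 were called higher with BI-9564 and 0 lower in limma (all genes, 0.499% and 0.978%), and 20 had both BI-9564 libraries above both PFI-3 libraries, with 1 the other way (all genes, 20.5% and 19.9%). The median difference was 0.62, with 0.50 in pair 1 and 0.78 in pair 2 (all genes, 0.00). Without the block 1 of the 9 was called, and without any 1 library 0. *Trp53*, the gene of p53 itself, measured 459 and 445 TPM with PFI-3 and 449 and 462 TPM with BI-9564, a difference of 0.01 (95% interval −0.12 to 0.14).

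Promoter stretches of p53 response genes are shown because the p53 half-site, a motif of 10 bases, was found in them. They are RefSeq sequences of GRCm38.p6, read 5′ to 3′ along the gene's strand, with the half-site in capitals.
Cdkn1a, chr17:29090898-29090967, plus strand: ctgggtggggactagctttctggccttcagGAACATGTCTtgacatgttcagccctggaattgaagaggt
Ccng1, chr11:40755432-40755501, minus strand: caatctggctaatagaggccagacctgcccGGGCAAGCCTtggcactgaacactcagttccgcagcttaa
Mdm2, chr10:117710905-117710974, minus strand: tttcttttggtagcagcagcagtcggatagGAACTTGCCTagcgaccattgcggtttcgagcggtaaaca
The half-sites start 51, 185 and 186 bases before a RefSeq start of *Cdkn1a*, *Ccng1* and *Mdm2*, and none of these stretches overlaps an exon of GENCODE M21. *Cdkn1a* has another RefSeq start further downstream, and its distance is counted from the upstream one. In windows of 250 bases before to 50 after the start, 6 of 38 genes called higher held a half-site (15.8%), 3 of 75 called lower (4.0%) and 7.89% of 7783 tested genes with a window. This motif was added after the gene lists' values were seen, and a match is a description of the letters, not of binding.

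*Psrc1*, which codes for a spindle protein and lies on chromosome 3 (108383839 to 108388231, plus strand, GRCm38), was the p53 response gene that passed with and without the block. It measured 80 and 81 TPM with PFI-3 and 155 and 182 TPM with BI-9564. The difference was 1.05 (SE 0.09), 2.07-fold, with a limma adjusted p of 0.00949 with the block and 0.0207 without it. DMSO (102 and 99 TPM) and P+B (127 and 130 TPM) lay between the compounds, with no overlap of any 2 groups.

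*Btg2*, an antiproliferative gene, had the largest difference of the list. It measured 20 and 13 TPM with PFI-3, 18 and 12 TPM with DMSO, 40 and 33 TPM with BI-9564 and 36 and 38 TPM with P+B, which puts PFI-3 with DMSO and BI-9564 with P+B. Its difference was 1.12 (SE 0.18; limma, adjusted p = 0.0302). *Cdkn1a*, which codes for the cell cycle inhibitor p21, had the same arrangement, with 96 and 73 TPM for PFI-3, 90 and 77 TPM for DMSO, 148 and 141 TPM for BI-9564 and 131 and 137 TPM for P+B (0.78, SE 0.11; limma, adjusted p = 0.0251). *Ccng1*, cyclin G1, measured 120 and 81 TPM with PFI-3 and 173 in both BI-9564 libraries (0.80, limma adjusted p = 0.0387). *Mdm2*, the ubiquitin ligase of p53, measured 135 and 87 TPM with PFI-3 and 187 and 149 TPM with BI-9564 (0.62, limma adjusted p = 0.0338). In each of these 4 genes the lowest BI-9564 library was above the highest PFI-3 library.

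*Plk2* and *Eda2r* differed in where DMSO lay. *Plk2*, a polo-like kinase, measured 97 and 69 TPM with PFI-3, 119 and 104 TPM with DMSO, 171 and 146 TPM with BI-9564, and 112 and 96 TPM with P+B. DMSO sat between the 2 compounds and P+B overlapped DMSO, and the difference was 0.94 (SE 0.09; limma, adjusted p = 0.0119). *Eda2r*, a death receptor of the ectodysplasin pathway, had 20 and 16 TPM with PFI-3 and 31 and 33 TPM with BI-9564, with DMSO at 26 and 22 TPM (0.80, limma adjusted p = 0.0398). The nuclease gene *Aen* (0.67, limma adjusted p = 0.0267) and the autophagy-linked gene *Trp53inp1* (0.68, limma adjusted p = 0.043) completed the 9 called members.

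Members that did not pass mostly lay on the same side. The apoptosis genes *Pmaip1*, *Bbc3* and *Bax* had differences of 0.90, 0.52 and 0.20 (limma, adjusted p = 0.108, 0.243 and 0.122). *Plk3* was the exception, with 36 and 37 TPM for PFI-3 and 25 and 22 TPM for BI-9564 (−0.62, limma adjusted p = 0.0517). Over the 23 genes the median difference from DMSO was 0.51 for BI-9564 and −0.05 for PFI-3, comparisons that share the 2 DMSO libraries. Against DMSO 6 of the 23 were called higher with BI-9564 and 0 with PFI-3 in limma, beside 0.489% and 0% of all genes. P+B lay nearer to BI-9564 than to PFI-3 in 20 of the 23, and DMSO lay nearer to PFI-3 in 21. Over all tested genes, P+B lay nearer to BI-9564 in 59.9% and DMSO lay nearer to BI-9564 in 39.4%.

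**Figure D2:**
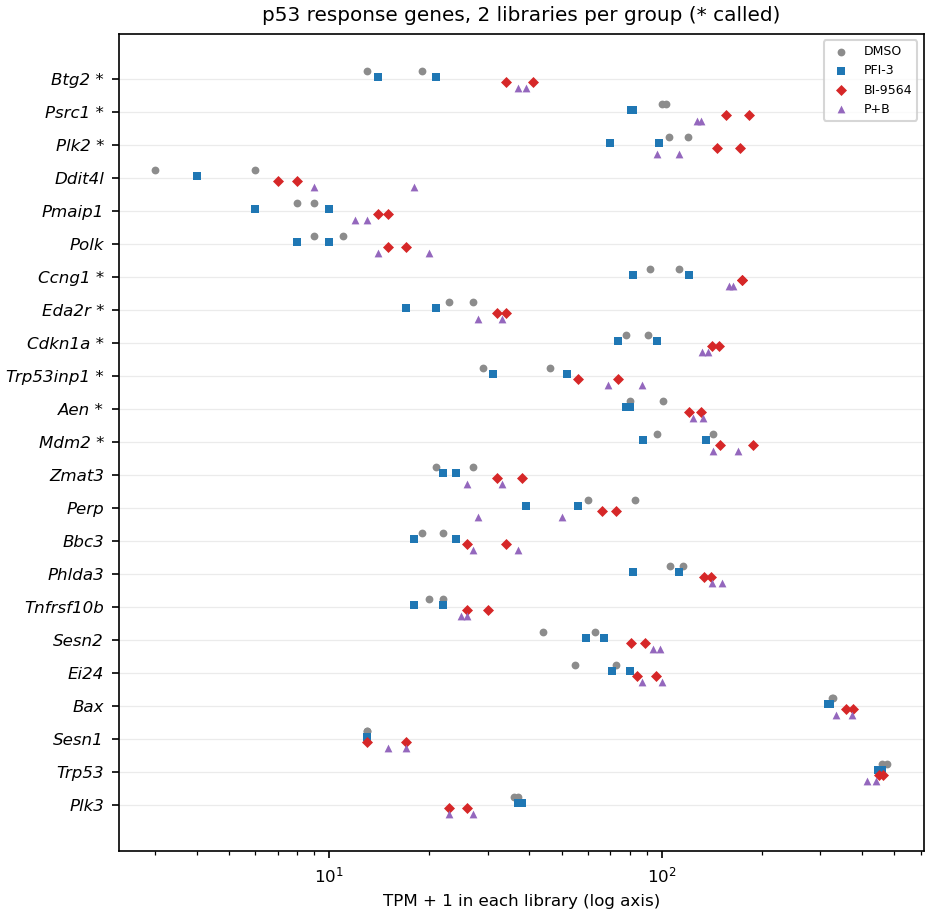
TPM + 1 in each of the 8 libraries (log axis) for the 23 tested p53 response genes, ordered by the difference between the compounds, with the 2 libraries of DMSO, PFI-3, BI-9564 and P+B as separate symbols and an asterisk for the 9 called genes. In 20 genes both red BI-9564 diamonds lie to the right of both blue PFI-3 squares, and in *Plk3* to the left.

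ATF4 is a transcription factor whose translation rises when amino acids are scarce or unfolded protein builds up in the endoplasmic reticulum (ER), and it switches on amino acid transporters, synthesis enzymes and stress genes. Of 32 listed genes, *Atf4* included, 26 were tested. Of these, 4 were called lower with BI-9564 and 0 higher in limma, 15 had both BI-9564 libraries below both PFI-3 libraries and 4 above, and the median difference was −0.28. Over all genes 0.978% were called lower and 0.499% higher, and 19.9% and 20.5% lay below and above with no overlap. Without the block 2 of the 4 were called, and without any 1 library 0.

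Promoters of genes in this group and beyond it are shown for TGATGCAA, the composite C/EBP-ATF motif that ATF4 is known to bind with a C/EBP partner, in capitals and here read as either strand (TTGCATCA is its reverse complement).
Chac1, chr2:119351019-119351086, plus strand: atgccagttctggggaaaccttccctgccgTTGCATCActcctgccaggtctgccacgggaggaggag
Herpud1, chr8:94386287-94386354, plus strand: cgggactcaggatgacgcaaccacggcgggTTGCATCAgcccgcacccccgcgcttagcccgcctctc
Cnpy2, chr10:128322308-128322375, plus strand: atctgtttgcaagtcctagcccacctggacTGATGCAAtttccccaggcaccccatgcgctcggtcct
Atf3, chr1:191183406-191183473, minus strand: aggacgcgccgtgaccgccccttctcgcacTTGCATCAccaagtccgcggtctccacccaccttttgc
The motif starts 193, 112, 121 and 110 bases before the RefSeq start of *Chac1*, *Herpud1*, *Cnpy2* and *Atf3*. It was found in 5 of the 75 windowed genes called lower (6.67%; the others are *Nupr1* and *Slc1a4*, where the stretch overlaps an annotated exon of the gene), in 1 of 38 called higher (2.63%, *Atf3*) and in 49 of 7783 tested genes (0.63%). The shares rest on 5 genes and 1 gene.

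*Atf4*, on chromosome 15 (80255184 to 80257541, plus strand), measured 383 and 419 TPM with PFI-3, 305 and 297 TPM with DMSO, 244 and 227 TPM with BI-9564 and 283 and 258 TPM with P+B. PFI-3 was highest and BI-9564 lowest with no overlap between the 4 groups, and the compounds differed by −0.76 (SE 0.07), 1.70-fold, with a limma adjusted p of 0.0119 with the block and 0.0207 without. Neither compound was called against DMSO, where the differences were 0.41 for PFI-3 and −0.35 for BI-9564. *Atf4* thus passed only in the direct comparison, with the compounds on opposite sides of DMSO.

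*Trib3*, a pseudokinase gene that ATF4 switches on, measured 50 and 65 TPM with PFI-3, 44 and 39 TPM with DMSO, 21 and 23 TPM with BI-9564 and 21 and 18 TPM with P+B. Its difference was −1.34 (SE 0.16), 2.52-fold, with a limma adjusted p of 0.0196 with the block and 0.0385 without. *Chac1*, which codes for an enzyme that breaks down glutathione, had 13 and 16 TPM with PFI-3, 10 and 6 TPM with DMSO, 3 and 2 TPM with BI-9564 and 3 in both P+B libraries (−2.15, limma adjusted p = 0.0267). *Nupr1*, a stress-induced chromatin protein gene, had 38 and 22 TPM with PFI-3, 16 and 19 TPM with DMSO, 4 and 7 TPM with BI-9564 and 12 and 9 TPM with P+B (−2.24, SE 0.33; limma, adjusted p = 0.0267). In these 3 genes PFI-3 lay above DMSO and BI-9564 below it in every library, and P+B lay nearer to BI-9564. At these low TPM the whole-number rounding and the added 1 weigh on the size of the difference for *Chac1* and *Nupr1*.

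Other listed ATF4 targets differed less. The asparagine synthetase gene *Asns* (−0.30) and the mitochondrial folate enzyme gene *Mthfd2* (−0.52) had limma adjusted p-values of 0.0427 and 0.0449 but under 1.5-fold. *Ddit3*, the gene of CHOP, had 21 and 19 TPM with PFI-3 and 10 and 6 TPM with BI-9564 (−1.26, limma adjusted p = 0.0842). *Ddit4* and *Sesn2*, which are p53 and stress genes that restrain mTORC1, lay on the other side with 1.04 and 0.43 (limma, adjusted p = 0.0672 and 0.103). The neutral amino acid transporter gene *Slc1a4*, which was not on the list, was called lower, with 14 and 18 TPM for PFI-3 and 7 and 6 TPM for BI-9564 (−1.17, limma adjusted p = 0.0433). Of the 22 tRNA synthetase genes 0 were called in limma, while 20 lay below 0, 9 with no overlap (all genes, 19.9%), at a median of −0.08.

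**Figure D3:**
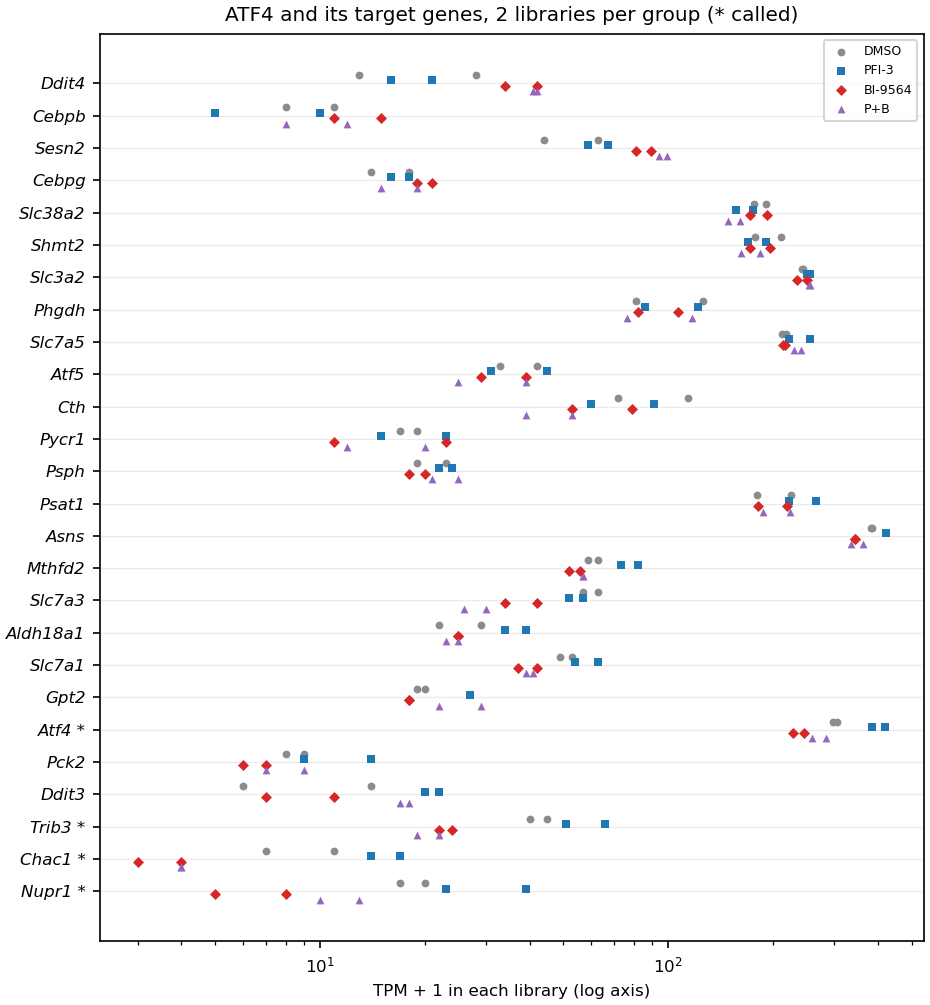
TPM + 1 in each of the 8 libraries (log axis) for the 26 tested genes of the ATF4 list, ordered by the difference between the compounds, with 2 libraries per group as separate symbols and an asterisk for the 4 called genes. The 4 called genes stand near the foot, where the blue PFI-3 squares lie to the right of the grey DMSO circles and the red BI-9564 diamonds to the left.

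Of 22 tested genes of the ER unfolded protein response 2 were called lower with BI-9564 and 0 higher in limma (all genes, 0.978% and 0.499%), 11 were below with no overlap and 3 above (all genes, 19.9% and 20.5%), and the median was −0.13. *Manf*, which codes for a secreted ER stress protein, measured 219 and 222 TPM with PFI-3, 162 and 166 TPM with DMSO, 115 and 124 TPM with BI-9564 and 186 and 158 TPM with P+B. It differed by −0.88 (SE 0.09), 1.84-fold, with a limma adjusted p of 0.0119 with the block and 0.0207 without. *Herpud1*, a component of ER-associated degradation, had 27 and 29 TPM with PFI-3 and 15 and 17 TPM with BI-9564 (−0.77, limma adjusted p = 0.0497). The lectin chaperone gene *Calr* (−0.43, 95% interval −0.54 to −0.32) and *Hspa5*, the gene of BiP (−0.40, −0.54 to −0.25), had limma adjusted p-values of 0.0133 and 0.0281 under 1.5-fold. In *Manf* and *Herpud1* P+B lay nearer to PFI-3, unlike the 4 called ATF4 genes, where it lay nearer to BI-9564.

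Naive pluripotency is the ground state that 2i/LIF medium holds, and its factors include NANOG, ESRRB, KLF4 and TFCP2L1. Of 21 listed naive genes 19 were tested. Of these, 7 were called lower with BI-9564 and 0 higher in limma (all genes, 0.978% and 0.499%), 17 were lower in both same-numbered pairs and 0 higher (all genes, 29.2% and 29.6%), and 10 were lower with no overlap and 0 higher (all genes, 19.9% and 20.5%). The median difference was −0.61, with −0.46 in pair 1 and −0.57 in pair 2. None of the 7 was called without the block or without any 1 library. In every group replicate 1 was the higher library in most of these genes.

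*Nanog*, on chromosome 6 (122707489 to 122714633, plus strand), measured 106 and 57 TPM with PFI-3, 71 and 40 TPM with DMSO, 59 and 29 TPM with BI-9564 and 68 and 46 TPM with P+B. Within each pair PFI-3 was the highest and BI-9564 the lowest, but the libraries of the 2 compounds overlapped, and the difference of −0.89 (SE 0.12) had a limma adjusted p of 0.0203 with the block and 0.39 without. *Zfp42*, the gene of REX1, overlapped likewise, with 257 and 189 TPM for PFI-3 and 189 and 100 TPM for BI-9564 (−0.68, limma adjusted p = 0.0291 with the block and 0.45 without).

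*Esrrb*, an orphan nuclear receptor gene, did not overlap. It measured 128 and 110 TPM with PFI-3, 86 and 58 TPM with DMSO, 76 and 54 TPM with BI-9564 and 141 and 100 TPM with P+B, so that PFI-3 and P+B were high and DMSO and BI-9564 low (−0.88, SE 0.10; limma, adjusted p = 0.0144 with the block and 0.19 without). *Klf4* had 53 and 48 TPM with PFI-3, 32 and 25 TPM with DMSO, 35 and 26 TPM with BI-9564 and 48 and 35 TPM with P+B (−0.72, limma adjusted p = 0.0313). *Tfcp2l1* had 54 and 42 TPM with PFI-3, 42 and 28 TPM with DMSO and 34 and 28 TPM with BI-9564 (−0.61, limma adjusted p = 0.0451). In *Esrrb* and *Klf4* DMSO lay with BI-9564, and PFI-3 was 0.74 and 0.81 above DMSO, neither of which was called. *Klf2*, not called between the compounds, had its highest values with P+B and PFI-3 as well (152 and 94 TPM, and 109 and 95 TPM, against 65 and 52 TPM with DMSO).

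*Fgf4*, the growth factor gene that primes ESCs for differentiation, and *Fbxo15* showed another arrangement. *Fgf4* measured 55 and 53 TPM with PFI-3, 44 and 33 TPM with DMSO, 31 and 17 TPM with BI-9564 and 33 and 19 TPM with P+B (−1.20, SE 0.19; limma, adjusted p = 0.0292 with the block and 0.18 without). *Fbxo15* measured 125 and 104 TPM with PFI-3, 103 and 90 TPM with DMSO, 73 and 70 TPM with BI-9564 and 63 and 60 TPM with P+B (−0.67, limma adjusted p = 0.0196). In both genes BI-9564 and P+B were the low groups. Over the 19 genes the median difference from DMSO was −0.15 for BI-9564 and 0.36 for PFI-3, with the DMSO libraries shared, and 0 genes were called against DMSO with either compound in limma.

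Core pluripotency genes lay on the same side with smaller gaps: 0 of 12 were called in limma, 9 were lower in both pairs and 1 higher (all genes, 29.2% and 29.6%), and the median was −0.32. *Pou5f1*, the gene of OCT4, measured 1333 and 1299 TPM with PFI-3 and 1167 and 1104 TPM with BI-9564 (−0.21, 95% interval −0.31 to −0.11; limma, adjusted p = 0.0524). *Sox2* measured 111 and 100 TPM with PFI-3 and 93 and 66 TPM with BI-9564 (−0.42, −0.66 to −0.19; limma, adjusted p = 0.0757). The RNA-binding protein gene *Lin28a* had a limma adjusted p of 0.0441 at −0.51, under 1.5-fold. Of 12 tested formative and primed genes 0 were called in limma, at a median of 0.04.

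**Figure D4:**
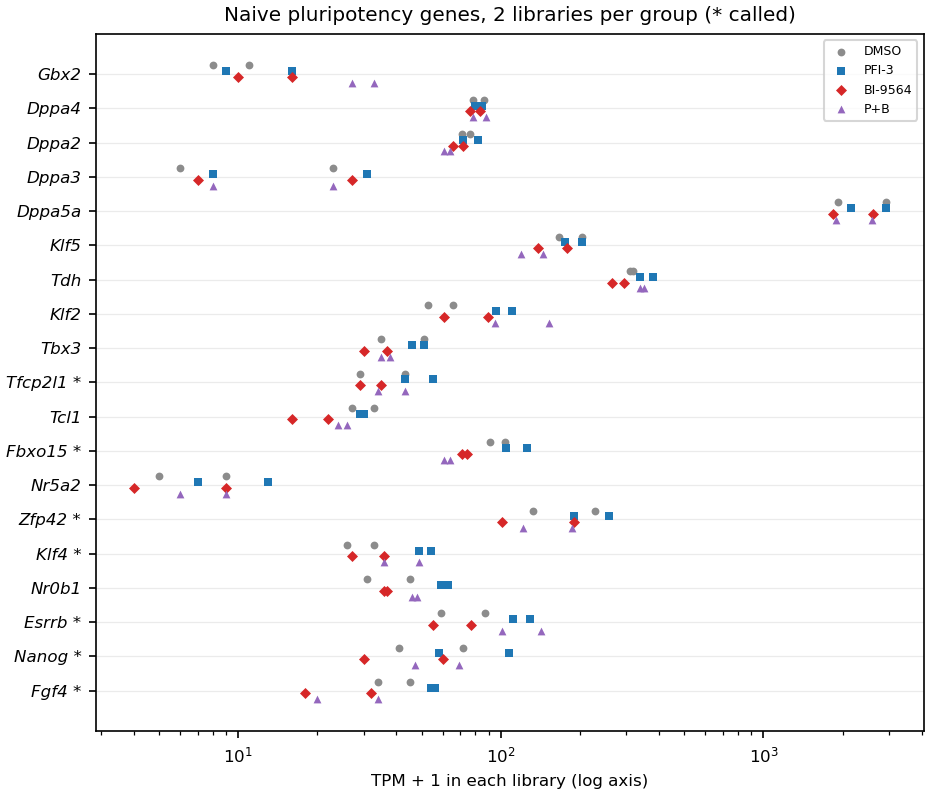
TPM + 1 in each of the 8 libraries (log axis) for the 19 tested naive pluripotency genes, ordered by the difference between the compounds, with 2 libraries per group as separate symbols and an asterisk for the 7 called genes. In 10 genes both blue PFI-3 squares lie to the right of both red BI-9564 diamonds, while in *Nanog* and *Zfp42* the 2 groups touch or cross.

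LIF acts through STAT3, which keeps several of these factors on. Of 15 tested LIF-STAT3 targets 5 were called lower with BI-9564 and 0 higher in limma (all genes, 0.978% and 0.499%), 9 were lower with no overlap and 0 higher (all genes, 19.9% and 20.5%), and the median was −0.31. The list shares *Klf4*, *Tfcp2l1*, *Klf5* and *Gbx2* with the naive list. *Bcl3*, an IκB family coactivator gene, measured 34 and 40 TPM with PFI-3, 27 and 32 TPM with DMSO, 15 and 8 TPM with BI-9564 and 20 and 15 TPM with P+B (−1.66, SE 0.26; limma, adjusted p = 0.0291). *Socs3*, the feedback inhibitor of STAT3 signalling, measured 47 and 49 TPM with PFI-3, 36 in both DMSO libraries, 32 and 29 TPM with BI-9564 and 34 and 40 TPM with P+B (−0.64, SE 0.12; limma, adjusted p = 0.0449). *Mras*, a RAS family gene, measured 62 and 58 TPM with PFI-3, 84 and 39 TPM with DMSO, 35 and 21 TPM with BI-9564 and 24 and 14 TPM with P+B (−1.12, limma adjusted p = 0.0441). *Bcl3* and *Socs3* had PFI-3 above DMSO and BI-9564 below it in every library, while the DMSO libraries of *Mras* spanned those of PFI-3. None of the 5 was called without the block or without any 1 library.

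*Stat3* itself had 47 and 53 TPM with PFI-3 and 41 and 38 TPM with BI-9564 (−0.33, limma adjusted p = 0.161). The acute-phase gene *Saa3* was called lower with BI-9564, with 29 and 16 TPM for PFI-3 and 13 and 4 TPM for BI-9564 (−1.43, limma adjusted p = 0.0359). Its DMSO libraries had 17 and 12 TPM, and the P+B libraries 20 and 10 TPM, so PFI-3 was the highest group in both pairs.

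*Tdgf1*, the gene of the Nodal co-receptor Cripto, passed with and without the block. It lies on chromosome 9 (110939603 to 110946158, minus strand) and measured 221 and 196 TPM with PFI-3, 163 and 156 TPM with DMSO, 101 and 76 TPM with BI-9564 and 82 and 84 TPM with P+B. The difference was −1.24 (SE 0.11), 2.36-fold, with a limma adjusted p of 0.00949 with the block and 0.0207 without. It was the only called gene of 15 tested Nodal and TGF-beta genes in limma (all genes, 0.978% called lower and 0.499% higher). The median of those 15 was 0.17, on the other side. BI-9564 was also called below DMSO (−0.86, limma adjusted p = 0.0202), and PFI-3 stood 0.38 above DMSO without a call.

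Transcripts of *Tet1* and *Tet2*, genes of DNA demethylases that oxidise methylated cytosine and are abundant in ESCs, were lower with BI-9564. They were the 2 called of 9 tested genes of DNA methylation enzymes in limma (all genes, 0.978% called lower and 0.499% higher). *Tet1* measured 38 and 37 TPM with PFI-3, 32 and 30 TPM with DMSO, 21 and 19 TPM with BI-9564 and 28 and 25 TPM with P+B (−0.88, SE 0.12; limma, adjusted p = 0.0196). *Tet2* measured 29 and 18 TPM with PFI-3, 18 and 11 TPM with DMSO, 11 and 10 TPM with BI-9564 and 15 and 11 TPM with P+B (−1.06, limma adjusted p = 0.0423). Both genes had PFI-3 highest and BI-9564 lowest in each pair. *Tet3* had 12 and 14 TPM with PFI-3 and 16 and 20 TPM with BI-9564, on the other side (0.44, limma adjusted p = 0.195), and the methyltransferase genes *Dnmt1*, *Dnmt3a* and *Dnmt3b* differed by 0.05, 0.03 and 0.06.

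Beside *Psrc1*, *Tdgf1*, *Atf4*, *Trib3* and *Manf*, the genes called with and without the block were *H3f3b*, *Rbm38*, *Akap12*, *Pcolce*, *Tnfrsf8* and *Acot13*. *H3f3b*, which like *H3f3a* codes for the replacement histone H3.3, measured 570 and 563 TPM with PFI-3, 612 and 603 TPM with DMSO, 863 and 860 TPM with BI-9564 and 870 and 883 TPM with P+B. The libraries fell into a high pair of groups and a low pair of groups, and the compounds differed by 0.60 (SE 0.04), 1.52-fold, just over the fold threshold (limma, adjusted p = 0.00853 with the block and 0.0207 without). *Rbm38*, an RNA-binding protein gene that p53 is known to switch on and that was not on the list, measured 108 and 98 TPM with PFI-3 and 172 and 162 TPM with BI-9564 (0.69, limma adjusted p = 0.0137 with the block and 0.0493 without).

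*Pcolce*, the gene of a procollagen C-proteinase enhancer, measured 255 and 245 TPM with PFI-3, 290 and 251 TPM with DMSO, 135 and 126 TPM with BI-9564 and 122 and 121 TPM with P+B. The difference was −0.93 (SE 0.07), 1.91-fold (limma, adjusted p = 0.00853 with the block and 0.0207 without). *Akap12*, a scaffold of protein kinase A, had 169 and 160 TPM with PFI-3, 164 and 149 TPM with DMSO, 95 and 86 TPM with BI-9564 and 94 in both P+B libraries (−0.86, SE 0.07; limma, adjusted p = 0.00949). *Tnfrsf8*, the gene of the receptor CD30, had 37 and 35 TPM with PFI-3, 33 and 30 TPM with DMSO, 13 and 14 TPM with BI-9564 and 11 and 12 TPM with P+B (−1.35, SE 0.14; limma, adjusted p = 0.012). In these 3 genes PFI-3 and DMSO formed the high groups and BI-9564 and P+B the low ones. *Acot13*, an acyl-CoA thioesterase gene, had 46 and 38 TPM with PFI-3, 35 and 33 TPM with DMSO, 20 and 18 TPM with BI-9564 and 33 and 31 TPM with P+B, so that P+B stayed near DMSO (−1.10, limma adjusted p = 0.012).

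The 15 genes with the largest differences, higher with BI-9564, were taken among called genes with a mean of at least 10 TPM, leaving out predicted genes, RIKEN names and repeated names. *Nsd2*, a histone H3K36 methyltransferase gene, measured 16 and 24 TPM with PFI-3 and 31 and 45 TPM with BI-9564 (0.90, limma adjusted p = 0.0267). *Peg3*, a paternally expressed zinc finger gene, measured 33 and 28 TPM with PFI-3 and 63 and 61 TPM with BI-9564, with DMSO at 38 and 31 TPM and P+B at 61 and 63 TPM (1.00, SE 0.12; limma, adjusted p = 0.0162). *Efnb2*, the gene of the ligand ephrin-B2, had 8 and 14 TPM with PFI-3 and 25 in both BI-9564 libraries (1.16, limma adjusted p = 0.0449). The atypical cadherin gene *Fat1* (0.88), the calcium sensor gene *Hpcal1* (1.49), the actin bundler gene *Espn* (1.02), *Commd3* (0.84), *Zfp365* (1.16), *Plpp5* (0.91), *Fam89b* (0.88), *Ttll1* (0.83) and *Zfp800* (0.83) completed these 15, with *Btg2*, *Psrc1* and *Plk2* above. *Polr2a*, the gene of the largest RNA polymerase II subunit, was noticed after its values were seen: it had 205 and 228 TPM with PFI-3, 252 and 255 TPM with DMSO, 329 and 386 TPM with BI-9564 and 336 and 372 TPM with P+B (0.72, limma adjusted p = 0.00961).

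The same rule gave 15 genes lower with BI-9564, of which those not yet described follow. The rule left out *Gm7325*, a predicted gene named here after its values were seen, with 55 and 51 TPM for PFI-3 and 11 and 17 TPM for BI-9564 (−1.88, limma adjusted p = 0.0233). *Misp*, the gene of a mitotic actin-binding protein, measured 19 and 16 TPM with PFI-3, 32 and 29 TPM with DMSO, 5 and 6 TPM with BI-9564 and 5 and 2 TPM with P+B, so both compounds were below DMSO and BI-9564 the more so (−1.51, limma adjusted p = 0.0469). *Manba*, the gene of lysosomal beta-mannosidase, had 84 and 87 TPM with PFI-3 and 48 and 32 TPM with BI-9564 (−1.10, limma adjusted p = 0.0267). *H2-M5*, a non-classical MHC class I gene (−1.20), *Grik3*, a kainate receptor subunit gene (−1.18), *Gpa33* (−1.10) and *Lrrc34* (−1.32) were called as well. In GENCODE M21, 69 of the 151 overlap another gene, 34 of them on the same strand (*Manf* with *Rbm15b*, *Pcolce* with *Fbxo24*). The overlaps are of whole gene spans, introns included, and do not show that reads were shared. Of the 151, 8 have names of the form Gm plus a number. Reads shared between genes were assigned by RSEM. How well it split them cannot be checked from the deposited values, so values of genes that share reads are less certain.

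Metabolic and stress lists held single called genes. *Mt1*, a metal-binding metallothionein gene, measured 1253 and 1123 TPM with PFI-3, 925 and 777 TPM with DMSO, 906 and 689 TPM with BI-9564 and 1330 and 1103 TPM with P+B (−0.59, SE 0.06; limma, adjusted p = 0.0119). DMSO lay with BI-9564 and P+B with PFI-3, as in *Esrrb*, and *Mt2* stood likewise at −0.43, under 1.5-fold. *Slc2a3*, the glucose transporter gene GLUT3, had 176 and 136 TPM with PFI-3 and 104 and 68 TPM with BI-9564 (−0.87, limma adjusted p = 0.0119) and was the 1 called gene of 29 glycolysis and hypoxia genes in limma. *Fads2*, a fatty acid desaturase gene (−0.64), *Hexa*, a lysosomal hexosaminidase gene (−0.63), and *Tk1*, thymidine kinase (−0.61), were the single called members of the lists of 13 fatty acid, 34 lysosome and 33 G1/S genes in limma. Over all genes 0.978% were called lower and 0.499% higher, so 1 call says little about such a list. Of the lysosome genes 13 were lower with no overlap and 0 higher, and of the G1/S genes 14 and 3, beside 19.9% and 20.5% of all genes.

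Lists with 0 calls in limma covered, among others, AHR and NRF2 targets, heat shock, sterol synthesis, oxidative phosphorylation, ribosomal proteins, the G2/M genes and the YAP-TEAD targets. In all, 31 of the 47 lists with a tested member had no called member and 4 lists had at least 4. Genes of BET proteins and P-TEFb, some of which are known to respond to drugs against BET bromodomains, had 0 calls of 15, with 7 higher with no overlap and 1 lower (all genes, 20.5% and 19.9%). *Brd2* among them measured 265 and 250 TPM with PFI-3 and 363 and 358 TPM with BI-9564 (0.48, 95% interval 0.34 to 0.62; limma, adjusted p = 0.0196), which is under 1.5-fold. *Aff1*, a scaffold of the super elongation complex, went the other way (−0.57, limma adjusted p = 0.0398, under 1.5-fold). Of 49 large ribosomal protein genes 19 were higher with no overlap and 5 lower (all genes, 20.5% and 19.9%), at a median of only 0.04. Of 39 ribosome biogenesis genes 1 was higher and 14 lower with no overlap, beside the same shares, at a median of only −0.06.

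**Figure D5:**
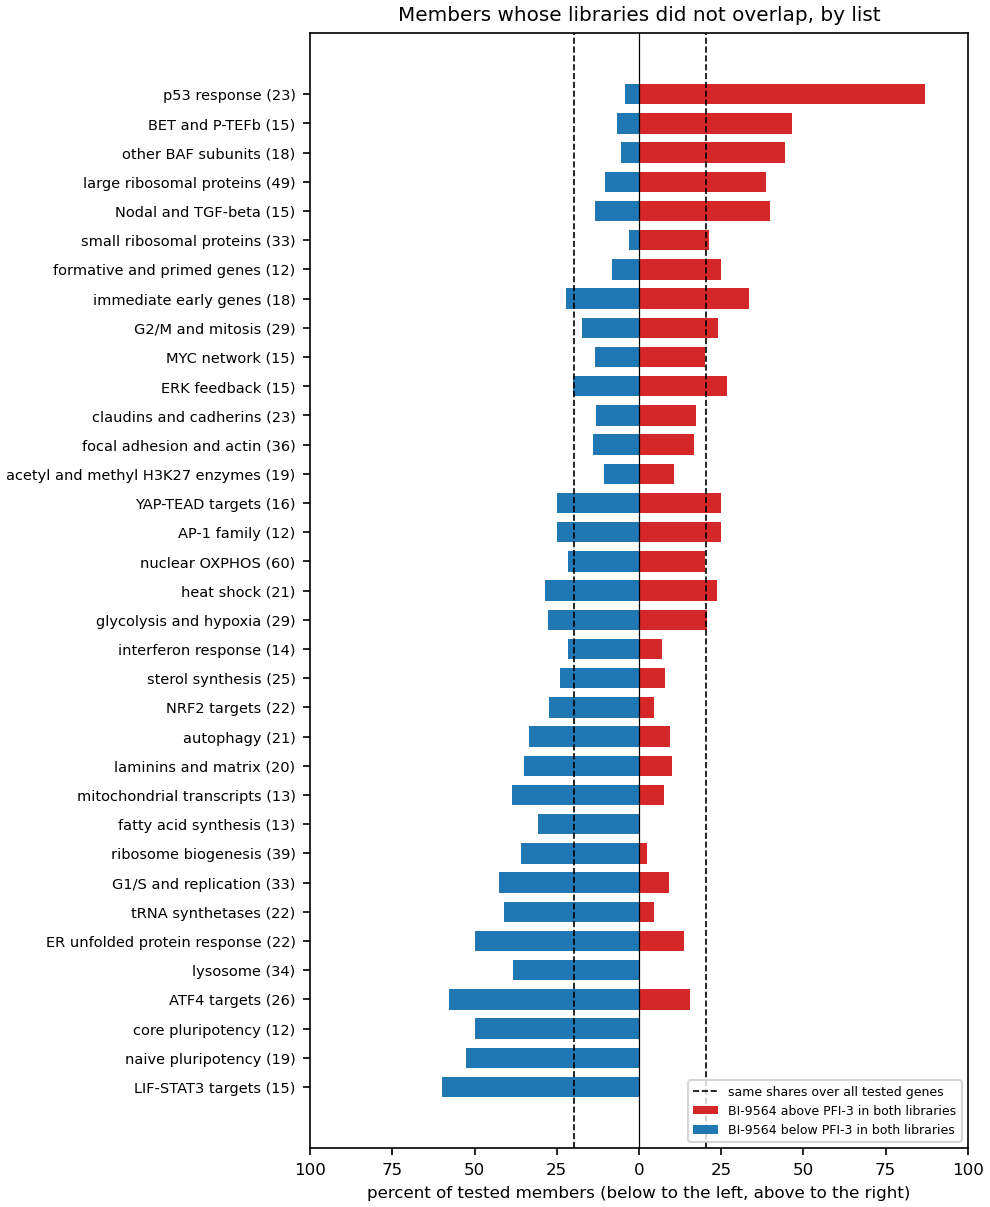
Percent of tested members of each list whose 2 BI-9564 libraries were both above (red, to the right) or both below (blue, to the left) both PFI-3 libraries, for the 35 lists with at least 12 tested genes (number in brackets), with dashed lines at the shares over all tested genes, 20.5% and 19.9%. The p53 response stands at the top with 20 of 23 above, and the LIF-STAT3, naive and core pluripotency lists at the foot with none above.

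DMSO and P+B were set beside the 2 compounds. Against DMSO, limma with the block called 156 genes with BI-9564 (1.53%; 50 higher and 106 lower) and 0 with PFI-3. Of the 51 genes called higher with BI-9564 than with PFI-3, DMSO lay nearer to PFI-3 in 39 and P+B nearer to BI-9564 in 44, and the median differences from DMSO were 0.57 for BI-9564 and −0.21 for PFI-3. Of the 100 called lower, DMSO lay nearer to PFI-3 in 75 and P+B nearer to BI-9564 in 82, with medians of −0.59 and 0.25. Over all tested genes P+B lay nearer to BI-9564 in 59.9%, and DMSO in 39.4%. The compounds stood on opposite sides of DMSO in 41 of the 51 and 77 of the 100, against 35.7% of all tested genes, an arrangement that a call between the 2 compounds itself favours.

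In their promoter windows the called genes were also searched, on both strands, for motifs of other factors, with 38 genes called higher, 75 called lower and 7783 tested genes holding a window. The AP-1 motif TGACTCA was in 2.63% of those called higher, 6.67% of those called lower and 4.11% of all, and the CRE TGACGTCA in 7.89%, 1.33% and 4.02%. The E-box CACGTG was in 10.5%, 10.7% and 12.6%, the NF-Y motif CCAATC in 28.9%, 18.7% and 25.2%, and the TATA box TATAAA in 18.4%, 12% and 7.73%. The AHR core GCGTG was in 71.1%, 45.3% and 59.1%, and the antioxidant element TGACNNNGC in 26.3%, 13.3% and 16.9%. These shares describe letters within 300 bases and were not tested.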

How the data were processed

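The authors deposited 1 table of whole-number TPM for 50600 gene names and 8 libraries, made from mRNA-seq reads; the submitters' notes name bcl2fastq, Bowtie2 2.2.5, RSEM 1.3.0 and mm10, and the deposited values are treated as a score because TPM rounded to whole numbers keeps no depth. Counting error is therefore unknown and no count model was used. Annotation, strand and the settings of RSEM for reads shared between genes are not given in the sources used here. A repeated name occurred in 187 rows, a date in place of a name in 27, and 33075 rows were at 0 throughout. The filter on the mean left out 40378 genes.

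Values were analysed as log2(TPM + 1) with limma 3.58.1 in R 4.3.3 (lmFit, eBayes with a trend), all 4 groups and the replicate number as a block, 3 residual degrees of freedom. P-values were adjusted by Benjamini-Hochberg over all tested genes, and a gene was called at an adjusted p under 0.05 and at least 1.5-fold. Same-numbered libraries deviated together: replicate differences correlated at Pearson r of 0.143 to 0.236 between all 6 pairs of groups (0.180 between PFI-3 and BI-9564). The procedure was tested on simulated data. The members, the 48 gene lists and the motifs were chosen with earlier results of these data known. Genes named are up to 15 per direction by size (mean of at least 10, without predicted Gm and RIKEN names or repeated names), those called without the block, the compound and JUN targets, and up to 5 called genes, or 2 by smallest p, per list. Other genes named are list members or were chosen after their values were seen. Positions are from GENCODE M21 on GRCm38 and promoters from RefSeq (7783 of 10217 tested names matched), scanned in Python 3.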

Additional observations from a re-analysis of the deposited data

Results flagged for a closer look

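In 3 genes under the filter on low values, both libraries of 1 compound had at least 5 TPM while those of DMSO and of the other compound had at most 1 TPM. Genes with smaller gaps were not counted. *Rpl23a-ps3*, a ribosomal pseudogene, had a mean of 6.5 TPM with BI-9564 (5 and 8 TPM), against 0 and 1 TPM in each of DMSO, PFI-3 and P+B. *Gm14117* had a mean of 9.5 TPM with PFI-3 (6 and 13 TPM), was listed at 0 with DMSO and BI-9564, and had 15 and 0 TPM with P+B. *Gm5812* had a mean of 8.5 TPM with PFI-3 (6 and 11 TPM), was listed at 0 with DMSO and BI-9564, and had 15 and 0 TPM with P+B. The P+B libraries of *Gm14117* and *Gm5812* thus disagreed with each other, and no test was run on any of the 3. *Gm14117* and *Gm5812* had equal values in every library except PFI-3 replicate 2 (13 and 11 TPM), so they may not be separate observations. Whether they share reads was not tested.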

How the results depend on the processing

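The direction of all 151 called genes was kept in every alternative that tested them. The block, the trend, the thresholds, median centring and the DMSO and P+B libraries leave the difference itself unchanged. In those alternatives the sign was therefore fixed in advance, and a call partly selects for 1 sign in both pairs. The number of calls was not stable. It was 11 without the replicate block, 37 with a mean of at least 1, 483 with no filter (where limma warned that most variances were 0), 257 without a fold threshold, 39 at a fold of at least 2, 6 at an adjusted p under 0.01, and 0 without a trend (1908 at an unadjusted p under 0.05) and in both fits of only the 4 libraries compared. Leaving out 1 library gave 0 to 1 calls, with 1371 to 2034 genes at an unadjusted p under 0.05. Pseudocounts of 0.5 and 5, a mean of at least 20, quantile normalization and median centring gave 149, 141, 149, 132 and 151. Called genes of the naive, LIF-STAT3, p53 and ATF4 lists numbered 7, 5, 9 and 4, and became 0, 0, 1 and 2 without the block, 2, 0, 2 and 2 with a mean of at least 1, and 0 in each list without a trend, in the 4-library fits and in every fit without 1 library (lowest and highest 0); the LIF-STAT3 list had 3 with a pseudocount of 5. Among named genes that were not called, the sign turned in some fits without 1 library: *Brd7* ran from −0.17 (without BI-9564 replicate 2) to 0.45, *Fosl1* from −0.12 (without BI-9564 replicate 2) to 0.36, *Brd9* from −0.061 (without BI-9564 replicate 1) to 0.22, and *Nqo1* from −0.10 (without PFI-3 replicate 1; −0.062 without BI-9564 replicate 2) to 0.12. *mt-Co1*, *mt-Co3* and *Rps2* came to 0 under quantile normalization. The cause of these changes was not tested. The replicate block was used because same-numbered libraries deviate together; with 2 libraries a group and TPM of unknown depth, a missing call does not show that the compounds act alike.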

Other observations

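The genes in this part were chosen after their values were seen, as called genes outside the lists or lists not described above. *Pecam1*, an adhesion receptor gene that marks undifferentiated ESCs, measured 49 and 47 TPM with PFI-3, 53 in both DMSO libraries, 28 and 27 TPM with BI-9564 and 25 in both P+B libraries (−0.78, limma adjusted p = 0.0196). *Gdf3*, a TGF-beta family ligand gene, had 97 and 94 TPM with PFI-3 and 67 and 54 TPM with BI-9564 (−0.66, limma adjusted p = 0.0281), and *Sall1*, a zinc finger factor gene, had 41 and 45 TPM with PFI-3 and 26 and 25 TPM with BI-9564 (−0.73, limma adjusted p = 0.0429). In these 3 genes PFI-3 was within 0.14 of DMSO on the log2 scale, while the naive genes *Esrrb* and *Klf4* had PFI-3 above DMSO. *Nr3c1*, the glucocorticoid receptor gene, had 5 TPM in both PFI-3 libraries, 10 and 9 TPM with DMSO and 16 and 13 TPM with BI-9564 (1.36, limma adjusted p = 0.0359). *H1fx*, a linker histone gene, had 56 and 66 TPM with PFI-3, 52 in both DMSO libraries and 103 and 94 TPM with BI-9564 (0.69, limma adjusted p = 0.0276).

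Of 9 tested Wnt response genes 0 were called in limma, with 3 lower with no overlap and 0 higher (all genes, 19.9% and 20.5%) and a median of −0.23. *Ccnd1*, cyclin D1, measured 40 and 58 TPM with PFI-3 and 29 in both BI-9564 libraries (−0.71, limma adjusted p = 0.0626). Of 67 listed replication-dependent histone genes only 8 passed the filter on low values, and 0 were called in limma. Their differences ran from −1.08 to 1.75, with a median of 0.74. With no overlap 2 were higher and 2 lower, beside 20.5% and 19.9% of all genes. Transcripts of such histone genes mostly lack a poly(A) tail, and the libraries were made with an mRNA kit.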
